A study of Homo sapiens with 4 samples.

Results

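Retinoid receptors and retinoic acid targets were examined in naive and arsenic trioxide (ATO) resistant NB4 cells, an established human acute promyelocytic leukemia (APL) cell line. The set held 10 genes, and every probe that the scanner output names after one of them was taken, which gave 14 probes of the 41000 on each array and 10 of 30956 gene names. The genes were the receptors RARA, RARB, RARG, RXRA and RXRB, the retinoic acid carrier CRABP2, the enzymes CYP26A1 and DHRS3, and the targets TGM2 and RARRES3. RARA, RARG, RXRA and TGM2 had 2 probes each and the other genes 1.

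The naive group was 2 flasks of NB4 cells, which carry the PML-RARA fusion. The resistant group was 2 flasks of a single ATO resistant clone of the same line, labelled NB4-VM-AsR1, which had been kept free of ATO for a week before RNA was taken (the methods write NB4-EV-AsR1, and that both names stand for 1 clone is an assumption). Both groups therefore carry the fusion as far as the line is known, and both were grown in RPMI with FBS and without added retinoic acid as far as the labels and methods state. Each flask was labelled with Cy3 and read on 1 Agilent whole human genome array. The flasks were separate cultures of 1 line or 1 clone, so the p-values measure the spread between flasks. All 4 arrays shared a slide with the lines at different positions, so that line and position cannot be told apart.

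Retinoic acid is made inside the cell from retinol in a pair of oxidation steps and is broken down by the CYP26 enzymes. It binds the receptors RARA, RARB and RARG, which sit on DNA as heterodimers with an RXR, keep target genes low together with corepressors when empty, and raise them with coactivators when bound. In APL the fusion of PML with RARA holds the target genes low, retinoic acid at treatment doses lifts that block and the cells mature towards granulocytes, while ATO acts on the PML side of the fusion protein.

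Values are log2 of the processed spot signal minus the 75th percentile of that array, so that 0 is the level of a bright probe on each array, and each probe was compared only with itself. On the arrays 27922 to 28244 probes were well above background and 457 to 565 were saturated, and the lowest signal well above background lay between -6.63 and -6.17. Over the 28221 probes tested below, the naive flasks differed with an SD of 0.713 on the log2 scale and the resistant flasks with an SD of 0.371. Flasks of different lines differed with an SD of 1.01 to 1.07. Promyelocyte markers were all measured, with a summed level of 6.97 to 7.15 in the naive and 7.27 to 7.54 in the resistant flasks over 7 markers, but the probe of myeloperoxidase (MPO) was saturated on all 4 arrays and that of CTSG on both resistant arrays, so these sums do not compare the lines. Of the other lineages, the summed levels were 2.75 to 2.84 and 2.85 to 3.05 for 5 monocyte markers, 1.61 to 1.76 and 0.634 to 0.728 for 5 lymphocyte markers, and 0.0822 to 0.515 and 0.760 to 0.797 for 5 erythroid and megakaryocyte markers. Of these lists limma called ELANE (2.49) and AZU1 (1.17) higher in resistant cells and ANPEP (-1.83) and FCN1 (-2.55) lower on the log2 scale, and the T cell gene CD3D, at 0.70 and 1.16 in naive cells, was at least 169-fold lower. ELANE was near background in naive cells, at -5.74 and -6.56, and the second naive flask was not well above it. CD163 and MS4A1 were not above background on any array, nor were 4 of 6 stromal markers. The part of these lineage genes in the results below was not tested, and on bulk RNA a smaller share of cells with a transcript cannot be told apart from less of it per cell.

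DHRS3 was the only one of the 10 genes with a probe called changed between the lines, and it was 5.40-fold higher in resistant cells. RARRES3 and RXRA had lower values in both resistant flasks and did not pass the test, and the probes of RARA, RARG, RXRB, CRABP2 and CYP26A1 differed by -0.31 to 0.36 on the log2 scale and did not pass it either. RARB and TGM2 were above background in only 1 of the 4 flasks, the second naive flask.

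A probe was tested where both arrays of at least 1 line were well above background, and it was called changed at a limma Benjamini-Hochberg adjusted p below 0.05 and a difference of at least 2-fold. Of the 14 probes, 11 of 8 genes were tested, and 10 were well above background on all 4 arrays. None was saturated. Of the 11, 1 was called (9.09%), higher in resistant cells, against 5.27% of all 28221 probes tested, of which 2.30% were called higher and 2.97% lower. In 8 of the 11 (72.7%) the values of the lines did not overlap, 3 higher and 5 lower in resistant cells, against 53.0% of all probes. Differences of at least 2-fold were found for 2 of the 11, against 12.3% of all probes, and an unadjusted p below 0.05 for 4 of the 11 (36.4%), against 19.1% of all probes. The median log2 difference between the lines was -0.024 over the 11 probes and -0.020 over all probes, and the median size of the difference was 0.31 and 0.34, so that both medians lay near those of the array.

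**Figure D1:**
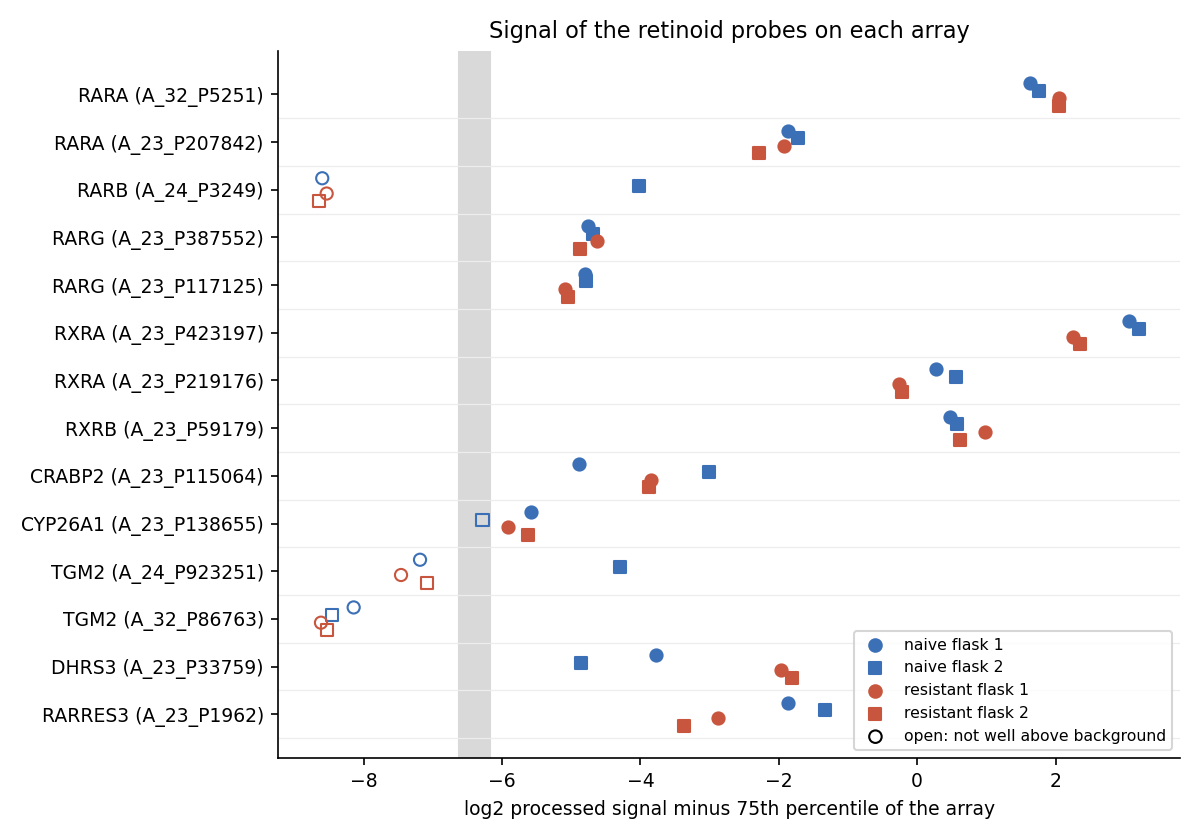
Log2 of the processed signal minus the 75th percentile of the array (horizontal axis) of the 14 probes, 1 row each, in the 2 naive flasks (blue) and the 2 resistant flasks (red), with circles for the first and squares for the second flask, open where the probe was not well above background; the grey band is the range of the lowest signal well above background on the arrays, -6.63 to -6.17. DHRS3 is higher in both resistant flasks, and RARB and the brighter TGM2 probe stand above the band in the second naive flask alone.

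RARA, the receptor that is split in the fusion, was measured by 2 probes near the end of the gene, at chr17:38512928-38512987 and chr17:38513174-38513233 (hg19, plus strand). The fusion keeps that part of RARA, so both probes read the normal and the fused transcript without separating them. The first probe (A_32_P5251) stood at 1.63 and 1.76 in the naive flasks and at 2.06 and 2.05 in the resistant flasks. Resistant cells were above naive cells in both flasks, and the log2 difference was 0.36 (SE 0.22, limma adjusted p = 0.439). The second probe (A_23_P207842) stood at -1.87 and -1.72 in the naive and at -1.93 and -2.29 in the resistant flasks, a difference of -0.31 (SE 0.25, adjusted p = 0.55) with no overlap either. The 2 probes of RARA thus differed in opposite directions and neither was called, and the difference between them was not tested. They begin as follows, and the first 30 of their 60 bases are shown because they are the only view of RARA on this array.
RARA A_32_P5251: ggggggttccccctgtacataccctgccat
RARA A_23_P207842: agttctcctcctcagccttttcctcctcag

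RARG, the receptor best known from skin, was dim in all flasks. Its probe at chr12:53604565-53604624 (hg19, minus strand) gave -4.76 and -4.68 in naive and -4.62 and -4.87 in resistant cells, the lines overlapped, and the difference was -0.02 (SE 0.23, limma adjusted p = 0.969). Its probe at chr12:53605554-53605613 gave -4.80 and -4.79 in naive and -5.09 and -5.05 in resistant cells. The resistant flasks were the lower ones there with a difference of -0.27 (SE 0.22, limma adjusted p = 0.55). The sign of the first RARG difference turned under other background and scaling choices and with single flasks left out, and that of the second under the normexp background correction.

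RARB is itself a textbook retinoic acid target, switched on through a response element in its own promoter. Its probe (chr3:25638622-25638681, hg19, plus strand) stood at -8.60 and -4.02 in the naive flasks and at -8.53 and -8.64 in the resistant flasks. The second naive flask was well above background and the other 3 were not, so the probe was not tested. The spot behind that value was uneven, with a pixel SD of 55.2% of the spot mean, while the other 55 spots of the 14 probes had 6.4% to 32.6%, and no spot was marked as an outlier by the extraction software. A gap as wide as 4.58 between the naive flasks was found in 57 of 40998 probes (0.139%). On that array alone 493 probes were above background, and each of the other arrays had 345 to 517 such probes of its own.

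The response elements of this pathway are paired half-sites in tandem. The half-sites AGGTCA or GGTTCA and likewise AGTTCA or GGGTCA, in any combination, were searched on both strands as direct repeats with spacers of 1, 2 and 5 bases in RefSeq promoter windows of GRCh38.p14, which run from 250 bases before to 50 after each start. Windows were at hand for 8 of the 10 genes, 18 in all, and not for TGM2 and RARRES3. A repeat with a spacer of 5 was present in 31 of 35116 windows (0.0883%), and among the 10 genes in those of RARB and CYP26A1. Repeats with a spacer of 1 (46 windows, 0.131%) or 2 (14 windows, 0.0399%) were in no window of the 8 genes. Parts of the windows around the repeat are shown, 103 bases for RARB (chr3:25428160-25428262, plus strand) and 117 for CYP26A1 (chr10:93073753-93073869, plus strand). These genes are the receptor and the enzyme that retinoic acid is best known to raise, and both were at or near background here. Capitals mark the repeat, which in CYP26A1 reads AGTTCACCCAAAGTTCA on the other strand.
RARB: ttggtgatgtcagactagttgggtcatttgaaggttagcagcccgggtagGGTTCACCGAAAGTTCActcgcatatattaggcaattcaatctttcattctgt
CYP26A1: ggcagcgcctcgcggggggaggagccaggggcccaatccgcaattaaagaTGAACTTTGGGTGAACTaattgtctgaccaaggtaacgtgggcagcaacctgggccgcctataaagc
The RARB repeat lay 53 to 37 bases and the CYP26A1 repeat 90 to 74 bases before the start. A match of letters is a description of the window and not a measured site.

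RXRA, the common partner that RARs need to bind DNA, was bright and was lower in resistant cells on both of its probes. The probe at chr9:137331772-137331831 (hg19, plus strand) stood at 3.06 and 3.20 in the naive flasks (mean 3.13 ± 0.10 SD, n = 2) and at 2.25 and 2.36 in the resistant flasks (2.30 ± 0.08). Its values did not overlap, and the difference of -0.83 (SE 0.22), or 1.78-fold, was not called (limma adjusted p = 0.125). The probe at chr9:137328603-137328662 stood at 0.27 and 0.57 in naive and at -0.26 and -0.22 in resistant cells, a difference of -0.66 (SE 0.23, 1.58-fold, adjusted p = 0.221). Both probes therefore had the same direction and a like size.
RXRA A_23_P423197: aggcaggagatgcatctattttaagatgct
RXRA A_23_P219176: aagagatgtgttgtcaccctccttatttct
Most probes around RXRA were lower as well. Within 1 Mb on either side, 16 probes of 12 other genes were tested, their median difference was -0.65 and 14 were below 0. Of the 16, 7 were called, all lower in resistant cells, against 5.27% of all probes tested. FCN1, a monocyte marker named above, lies in this stretch, and all 3 of its probes were called. On chromosome 9 beyond position 50000000 the median of 714 probes was -0.31, and beyond position 130000000 that of 251 probes was -0.41. The part of the region in the RXRA values was not tested.

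RXRB, a second RXR present in most cells, stood at 0.48 and 0.58 in the naive and at 0.98 and 0.62 in the resistant flasks (chr6:33162186-33162245, hg19, minus strand). The resistant flasks were the higher ones and lay further apart than the naive flasks, and the difference was 0.27 (SE 0.24, limma adjusted p = 0.598). Around RXRB the median of 57 probes was 0.0010.

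CRABP2 carries retinoic acid from the cytoplasm to the receptors. Its probe (chr1:156669579-156669638, hg19, minus strand) stood at -4.89 and -3.01 in the naive flasks and at -3.85 and -3.87 in the resistant flasks. Both resistant flasks lay between the naive flasks, which were 1.88 apart, a gap as wide as in 3.45% of all probes. The means were -3.95 ± 1.33 and -3.86 ± 0.02 (SD, n = 2), and the difference was 0.09 (SE 0.62, limma adjusted p = 0.957). Its direction was that of whichever naive flask was used: without the first naive flask it was -0.85, and without the second it was 1.03.

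**Figure D2:**
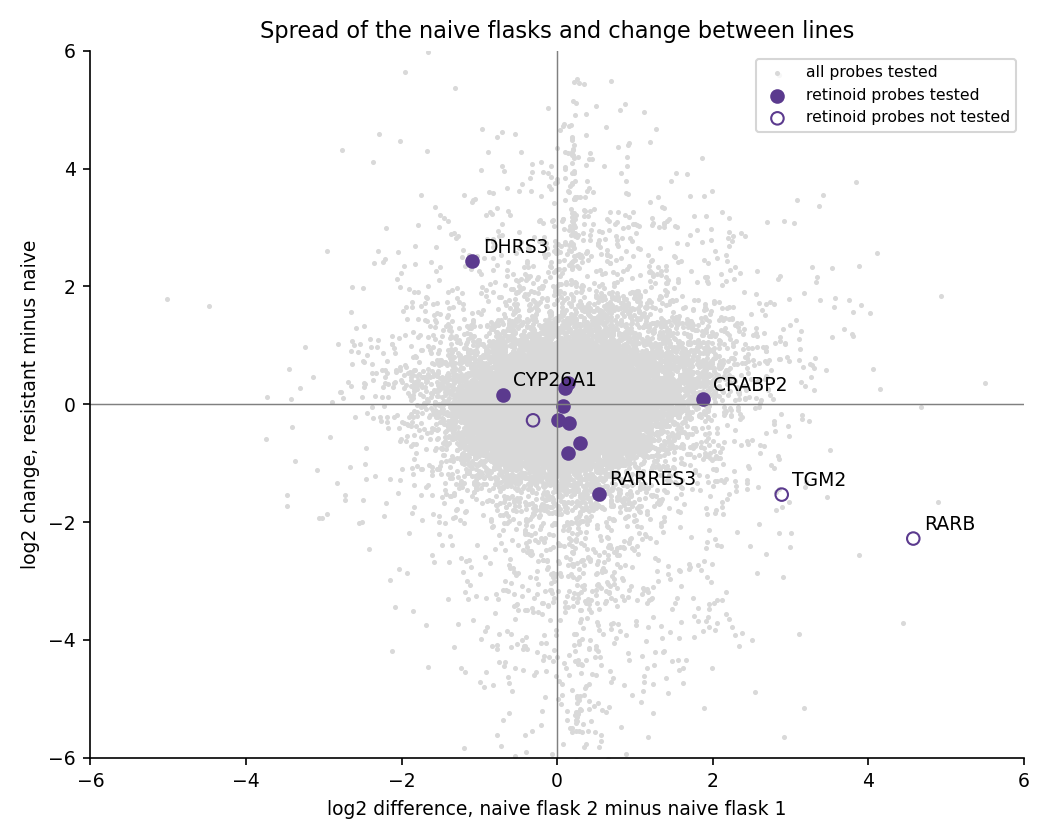
Difference between the naive flasks (second minus first, horizontal axis) and between the lines (resistant minus naive mean, vertical axis), both on the log2 scale, for all probes tested in grey and the probes of the 10 genes in purple, open where not tested; 77 probes lie outside the axes. CRABP2 sits at a naive gap of 1.88 with a difference between the lines of 0.09, and DHRS3 at a difference of 2.43.

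Over all 14 probes the median gap between the naive flasks was 0.302, beside 0.334 over all probes of the array, and that between the resistant flasks was 0.138, beside 0.195. Over the probes tested the naive medians were 0.147 for the 11 and 0.391 for all, but the filter on dim probes took out RARB and TGM2. RARB, TGM2, CRABP2 and DHRS3 held the widest naive gaps of the 10 genes.

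CYP26A1 breaks retinoic acid down and rises with it in many cells. Its probe (chr10:94837013-94837072, hg19, plus strand) stood at -5.58 and -6.28 in the naive and at -5.92 and -5.62 in the resistant flasks. The second naive flask was not well above background, the lines overlapped, and the difference was 0.16 (SE 0.32, limma adjusted p = 0.826). CYP26A1 was thus barely above background in both lines.

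DHRS3 is a short-chain reductase that turns retinal back into retinol, lowers the supply of retinoic acid and is itself raised by it. Its probe (chr1:12628110-12628169, hg19, minus strand) stood at -3.77 and -4.86 in the naive flasks and at -1.97 and -1.80 in the resistant flasks. Every flask was well above background, and both resistant flasks exceeded both naive flasks by more than the naive flasks differed. The mean rose from -4.32 ± 0.77 to -1.88 ± 0.12 (SD, n = 2), a log2 difference of 2.43 (SE 0.40, limma adjusted p = 0.0341). As raw processed signal the flasks read 78.9 and 30.9 in naive and 268 and 242 in resistant cells.
DHRS3 A_23_P33759: aggcaggaaaacagccagaagccaccttga
The call was lost without the first resistant flask (2.52, adjusted p = 0.104) and without the second (2.35, adjusted p = 0.136), with quantile normalization (adjusted p = 0.0818), with the normexp background correction (1.35, adjusted p = 1), with no filter on dim probes (adjusted p = 0.0798) and with the methods' t-test (adjusted p = 0.335). The direction was kept in all alternatives run, with differences between 1.35 and 2.98. Its neighbours were mostly lower, since 27 other probes within 1 Mb had a median of -0.40 and 22 of them were below 0.

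**Figure D3:**
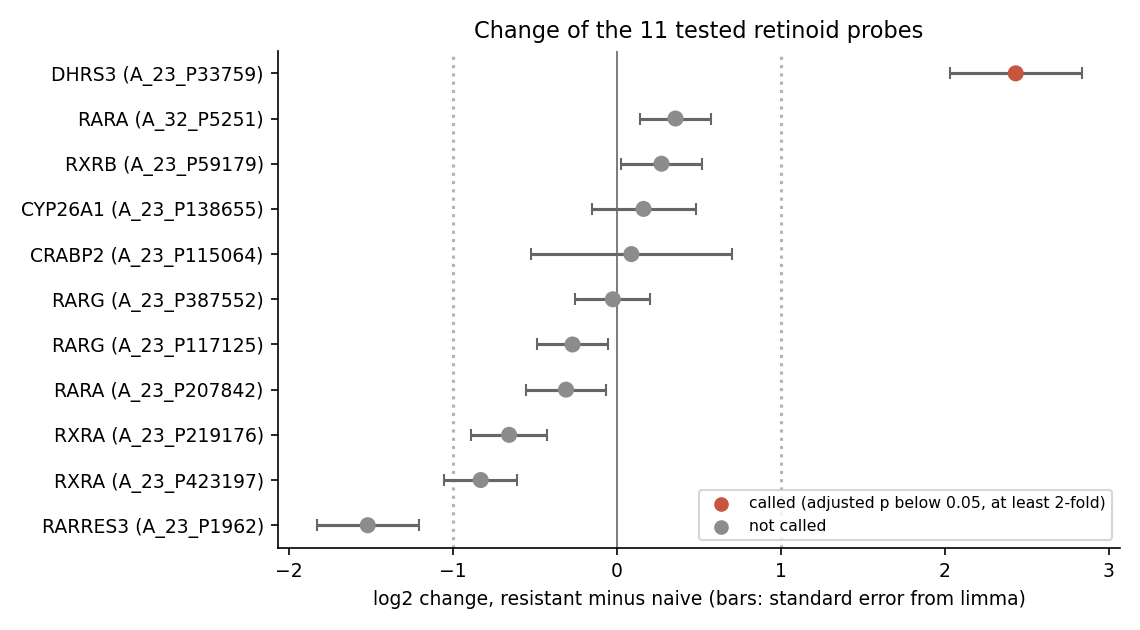
Log2 difference, resistant minus naive (horizontal axis), of the 11 probes tested, with bars of 1 SE from the limma fit and dotted lines at a 2-fold difference in either direction. DHRS3 at 2.43 is the only called probe and RARRES3 at -1.52 the only other beyond the lines.

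The 3 named genes whose 4 values followed those of DHRS3 most closely, by the Euclidean distance of values centred per probe over 18366 probes and 4 arrays, were PRKAR2B (distance 0.116), a regulatory subunit of protein kinase A, PIK3R3 (0.152), a regulatory subunit of phosphoinositide 3-kinase, and EFNB1 (0.248), an ephrin ligand. Their differences of 2.34, 2.52 and 2.37 follow from picking them by likeness to DHRS3, so they are not separate results. With 4 arrays this likeness rests on the split between the lines and the gap between the naive flasks.

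TGM2, tissue transglutaminase, is a classic target of retinoic acid in maturing myeloid cells. Its brighter probe (chr20:36766446-36766505, hg19, minus strand) stood at -7.18 and -4.30 in the naive and at -7.46 and -7.09 in the resistant flasks. As with RARB, the second naive flask was well above background and the other 3 were not. The gap of 2.89 between the naive flasks was as wide in 0.924% of all probes, and the spot's pixel SD was 28.4% of its mean. The other probe (chr20:36757853-36757912) stood between -8.61 and -8.14 and was above background in no flask. Neither was tested, so TGM2 gave no comparison between the lines.
TGM2 A_24_P923251: tgtgttcctggagcatttgttgaccgccaa
TGM2 A_32_P86763: ctccacaccagtggcctcgtggttattagc

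RARRES3, now named PLAAT4, is a phospholipase known as a gene that retinoids raise and that restrains growth. Its probe (chr11:63313827-63313886, hg19, plus strand) stood at -1.87 and -1.33 in the naive flasks and at -2.87 and -3.37 in the resistant flasks. Both resistant flasks lay below both naive flasks, and the means were -1.60 ± 0.38 and -3.12 ± 0.35 (SD, n = 2). The difference of -1.52 (SE 0.31), or 2.87-fold, was not called (limma adjusted p = 0.0645). With normexp the difference was -0.81. It was called with a shift to the median (-1.47, limma adjusted p = 0.048). Without the first naive flask the difference was -1.79, and without the second it was -1.25. Within 1 Mb, 76 probes of other genes had a median of -0.29, and 60 of them were below 0.
RARRES3 A_23_P1962: aggcgttctctagatcctttcctctgtttc
The 2 retinoid-responsive genes that differed most, DHRS3 and RARRES3, therefore did so in opposite directions.

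The rest of the pathway was read from 5 lists of 97 genes on the array, each gene by its brightest probe. Of these, 77 were tested and 7 were called, 5 higher and 2 lower (9.09%), against 5.46% of all 21057 genes tested. An unadjusted p below 0.05 was found for 25, against 19.4%. The 7 include PRAME, which was listed because earlier results of these data had shown it to differ. The 9.09% is therefore not independent of those results. All 7 calls were lost with the normexp background correction and with the methods' t-test, but both settings called 0 probes on the whole array. With bright local backgrounds reset, normexp called 10 of the 77 genes, 8 higher and 2 lower. The median log2 difference over the 77 was 0.020, beside -0.014 over all genes.

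Retinoid uptake, binding and storage had 8 of 13 genes tested, a median of -0.22 and 1 call. RBP4, the carrier of retinol in blood, stood at -2.66 and -2.75 in naive and at -5.04 and -5.29 in resistant cells. It fell by 2.46 on the log2 scale (SE 0.23, limma adjusted p = 0.00527), with flasks of each line close together, and lost the call without the second resistant flask. With 1 flask left out the difference was -2.58 to -2.34. The size of the difference depended on the background correction, with -0.51 under normexp and -1.09 after local backgrounds were reset.

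Synthesis and breakdown of retinoic acid had 12 of 19 genes tested, a median of -0.25 and 1 call. CYP26B1, another enzyme that clears retinoic acid, stood on its brighter probe at -3.92 and -3.97 in naive cells and was not well above background in either resistant flask, at -6.29 and -7.34. That probe was at least 5.69-fold lower in resistant cells (limma adjusted p = 0.0177), a bound set against the lowest signal well above background on each array. The other CYP26B1 probe, at -7.37 and -6.86 in naive and -7.48 and -5.78 in resistant cells, was well above background in the second resistant flask alone and was not tested, so the lower level rests on 1 of 2 probes. The call was lost with the normexp background correction (-0.19), which called 0 probes on the whole array. It was also lost with normexp after local backgrounds were reset (-0.69, limma adjusted p = 0.119) and without the second resistant flask. With 1 flask left out the difference was -3.39 to -2.34. DHRS9, a dehydrogenase that helps to make retinal, was named after its values were seen. It stood at 2.22 and 1.42 in naive and at 0.47 and 0.48 in resistant cells. The difference of -1.34 (SE 0.32, limma adjusted p = 0.0996) was not called, and with 1 flask left out it was -1.74 to -0.95. The aldehyde dehydrogenases ALDH1A1, ALDH1A2 and ALDH1A3, which carry out the last step of synthesis, were above background in no flask.

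RXR and its partner receptors had 10 of 14 genes tested, a median of 0.18 and 0 calls by limma. An unadjusted p below 0.05 was found for 4 of the 10, against 19.4% of all genes tested. PPARG, the fat cell receptor that pairs with RXR and was named after its values were seen, stood at -3.42 and -2.03 in naive and at -0.81 and -0.93 in resistant cells, a difference of 1.86 (SE 0.48, limma adjusted p = 0.117). It was not called, and with 1 flask left out the difference was 1.16 to 2.55. RXRG, the third RXR, was above background in no flask.

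Coregulators of the receptors had 15 of 17 genes tested, a median of 0.24 and 2 calls, both higher. PRAME, a tumour antigen known to bind RARs and hold their targets low, stood at -5.18 and -4.46 in naive and at 1.29 and 1.30 in resistant cells. It rose by 6.11 on the log2 scale (SE 0.31, limma adjusted p = 0.0011) and was included because it was known from earlier results of these data. With normexp its difference was 3.90. KAT2B, a histone acetyltransferase that acts as a coactivator, stood at -2.53 and -1.79 in naive and at -0.39 and -0.35 in resistant cells, and rose by 1.79 (SE 0.31, adjusted p = 0.0413). Both probes of each gene were called. The KAT2B call was lost without either resistant flask, with quantile normalization (limma adjusted p = 0.053) and with no filter on dim probes (adjusted p = 0.088). With 1 flask left out the KAT2B difference was 1.42 to 2.16.

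Genes known to rise with retinoic acid in myeloid cells had 32 of 34 tested, with 3 called, all higher, and a median of 0.15. An unadjusted p below 0.05 was found for 13 of the 32. Over all genes tested, 5.46% were called and 19.4% had an unadjusted p below 0.05. The differences ran from -2.81 to 4.65, with 19 above and 13 below 0. ITGAM, the integrin chain CD11b used as a marker of granulocyte maturation, stood at -0.79 and -0.98 in naive and at 0.99 and 1.26 in resistant cells. It rose by 2.01 (SE 0.24, limma adjusted p = 0.0114), and lost the call without the first or the second resistant flask. With 1 flask left out the difference was 1.87 to 2.14. RARRES2, the precursor of chemerin, was not well above background in naive cells and stood at -3.95 and -3.58 in resistant cells, at least 5.63-fold higher (adjusted p = 0.00118) against the floor used here. With normexp the log2 difference of RARRES2 was 0.97, and 1.12 after local backgrounds were reset, both smaller than that bound. RARRES1 was above background in no flask.

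**Figure D4:**
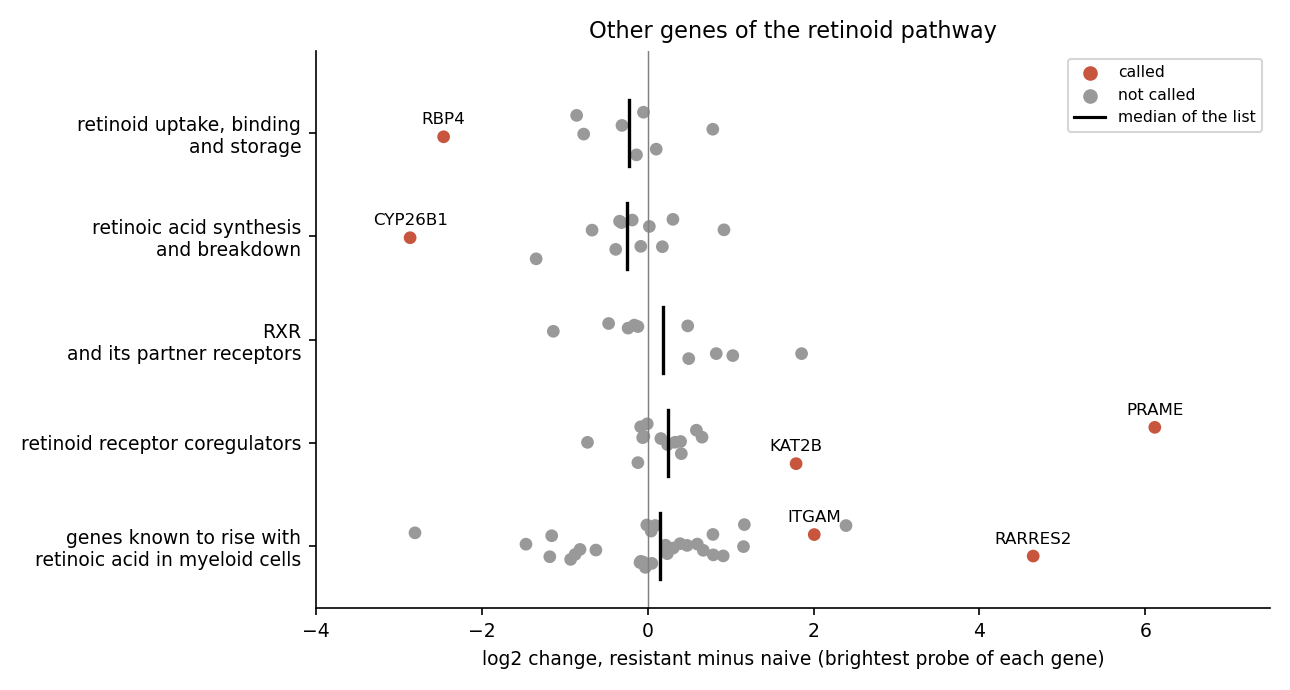
Log2 difference, resistant minus naive, of 76 of the 77 genes tested in the 5 lists (1 point per gene, brightest probe), with called genes in red and named and the medians over all tested genes of each list as bars. Calls are scattered over 4 of the 5 lists, and the medians lie between -0.25 and 0.24.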

How the data were processed

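The authors read the scanned images with Agilent Feature Extraction and deposited the output, in which the processed signal is a background-subtracted intensity per spot on a linear scale. A series table of log2 values, which the authors had shifted to each array's 75th percentile, was deposited as well. Here the log2 of each processed intensity was taken, control and outlier spots were dropped, replicate spots were averaged per probe, and each array's 75th percentile was subtracted. Across probes, Pearson's r with the deposited log2 table was at least 0.9998 on every array.

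Testing used limma 3.58.1 (lmFit, then eBayes) in R 4.3.3 over 28221 probes, with Benjamini-Hochberg adjustment over all of them. Arrays have no read depth, and 2 arrays per line limit the precision. An exact two-sided permutation test of 2 against 2 cannot go below p = 0.333 for a single probe, so limma's pooled variance carries the calls. Lower bounds were set against the dimmest well-above-background signal of each array in the dim line, or against the probe itself where brighter. The fitting step was tested on simulated data.

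Probe positions are those of hg19 in the scanner output, with no exon annotation of that build used here. RefSeq accessions gave 26222 of 41000 probes a current symbol. Named genes were the 10 genes with every probe, each called gene of the 5 pathway lists (with 1 exception), PRAME, and the 3 genes most like DHRS3. DHRS9 and PPARG, with genes at background, fall outside this rule and were named after their values were seen. These genes and lists were chosen with earlier results of these data known. Of the called pathway genes, 1 enters the counts and medians and is not reported here by name. CARM1, RBP3 and CYP26C1 had no probe under these names.

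Alternatives covered the background (normexp with an offset of 50, and the same after resetting local backgrounds above 100), the scaling (quantile, scale, median), the filters (dim probes kept or held to all 4 arrays, saturated probes dropped), the test (intensity trend, the methods' t-test, thresholds, a replicate block), the authors' log2 table as deposited, the omission of single flasks, and probe means per gene. Adding 50 to every signal shrinks the differences of dim probes by construction.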

Additional observations from a re-analysis of the deposited data

How the results depend on the processing

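Of the 11 probes, 1 was called by limma. The count was 0 with the normexp background correction (1 at an unadjusted p below 0.05), with quantile normalization (4), with no filter on dim probes (4) and with the methods' t-test after adjustment (5), and 2 with a shift to the median or with at least 2-fold and no test. On the whole array normexp called 0 of 28221 and the methods' t-test 0 of 28054 probes. Their counts of 0 therefore do not single out these genes. By the main rule 1487 probes of the array were called. The number was 1250 with quantile normalization, 1004 with no filter on dim probes and 1609 with a shift to the median. With bright local backgrounds reset, normexp called 1189 on the array and 1 of the 11. Counts of the 11 probes and of the array with 1 flask left out are not given, since 1 line is then a single flask. Over the array more probes were called without a naive flask and fewer without a resistant flask. Of the 77 pathway genes, 7 were called, against 0 with normexp (8 at an unadjusted p below 0.05), 0 of 76 with the methods' t-test (13), 18 with at least 2-fold and no test, and 3 to 20 with 1 flask left out (20 and 19 without the first and second naive flask, 5 and 3 without the first and second resistant flask). Over all 28221 probes, at least 2-fold with no test held for 12.3%, a share by probe and not by gene. The pathway counts with 1 flask left out rose and fell in the same direction as those of the array. Their range therefore does not single out these genes. With 1 flask left out, the lone flask of a line is assumed to vary like the other line. Flask numbers pair nothing in the labels, and same-numbered flasks deviated together only weakly (correlation 0.119 over 2 pairs). With the replicate number as a block, 1 probe and 8 pathway genes were called, and 1375 of all 28221 probes. The RARG probe near position 53604565 had a difference of 0.28 with normexp, 0.070 with bright local backgrounds reset, 0.064 with quantile, 0.042 with scale normalization and 0.021 with a shift to the median, and -0.15 to 0.10 with 1 flask left out. The other RARG probe had 0.25 with normexp. With 1 flask left out, CRABP2 ran from -0.85 to 1.03 and CYP26A1 from -0.19 to 0.51. Of 197 values of the 11 probes under 18 alternatives, 176 kept direction and side of the threshold and 10 turned sign. Normexp moved the median of all probes by 0.149, from -0.020 to 0.128, and RARG turned by more than that. The cause of these changes was not tested. No block for the slide was possible, since all arrays lay on 1 slide.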
